A study of Rattus norvegicus with 30 samples.

Results

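Liver gene expression was compared between 6 rats that had a sham operation and 6 rats that had none. These are 12 of the 30 arrays of a study of partial hepatectomy (PH), taken by the treatment stated for each rat; the other arrays, 6 each, are of rats with a resection of 30, 70 or 90% (groups PH30, PH70, PH90). All rats were wildtype Wistar animals assigned to their arm at random, and each array is 1 rat. The operated rats were killed 24 hours after surgery. A sham operation is in general use anaesthesia and opening of the abdomen with no removal of tissue, and serves as the control of the resected groups. What it consisted of here, the rats' age and sex and the hour of killing are not stated in the labels. The design text speaks of a control operation for the arm whose treatment label is none, and these rats are called unoperated below.

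RNA from frozen liver was hybridised to Affymetrix Rat Gene 2.0 ST arrays. The deposited values are on a log2 scale and each probe set is centred on its median over the 30 arrays, so a value of 0 is the middle of the series and not a level of the gene. Levels cannot be compared between genes, so the labelled tissue cannot be checked from these values. Of 9 hepatocyte markers measured, Alb, serum albumin, differed by -0.06 (adjusted p = 0.55), 1, Fga, was higher and 1, Ttr, lower in sham livers. Fga and Ttr are also counted below among acute phase and negative acute phase proteins. Probe sets with exactly 1 gene symbol gave 18166 genes. A gene is called when limma's adjusted p, fitted on the 12 arrays and adjusted over the 18166 genes by the Benjamini-Hochberg method, is below 0.05. The unoperated rats carry the highest animal numbers, 145 to 152 against 41 to 143 in sham, so the order of the rats and the operation cannot be told apart. Sham rats 141 and 143 have the numbers nearest to the unoperated rats, and beside some main results the difference is also given with these 2 sham rats alone. They are part of the full difference and are set against the same controls, so the 2 values are not independent. Over the 721 called genes the median ratio of the difference with these 2 rats to that with 6 was 0.957, and 721 kept their sign. In some genes the difference was smaller with these 2 rats, such as Gas6 (1.05 in place of 1.30) and Wfdc21 (1.86 in place of 2.12), and in others larger.

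The liver answers injury elsewhere in the body with the acute phase response. Cytokines, mainly interleukin-6 and interleukin-1, reach hepatocytes through the blood, and the transcription factors STAT3 and C/EBP then raise the genes of secreted defence proteins. The resting adult liver holds few dividing cells, and the mRNAs of mitosis proteins are made mainly in cells that are about to divide.

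Between sham and unoperated livers 721 of the 18166 genes were called, which is 3.97% of those tested. Of these, 228 were higher in sham (1.26%) and 493 lower (2.71%), and the median size of the difference was 0.38 on the log2 scale. In 438 of the called genes the 6 sham values and the 6 unoperated values did not overlap. They are part of the 516 without overlap among all genes tested (2.84%). Calls and overlap rest on the same values, so the overlap is a description and no further support for the calls. Size set few of the called genes apart: 34 differed by at least 1 on the log2 scale, 17 in each direction. With the spread estimated from all 30 arrays, in which the resected groups vary more, 134 genes were called (0.738%), 56 higher and 78 lower, and 133 of them are among the 721. The fold changes are the same in both fits, and for the main genes the adjusted p of the 30 arrays is also given. For some lists the members at an unadjusted limma p below 0.05 are counted below. Over all 18166 genes 1229 were higher and 1783 lower at that level, or 903 and 1104 on 30 arrays. The first principal component of the 12 arrays held 25.2% of the variance and placed all 6 sham rats (scores of 7.87 to 14.8) apart from all 6 unoperated rats (-14.3 to -5.72). In a piece of whole liver, fewer cells of a type and less RNA per cell cannot be told apart.

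**Figure D1:**
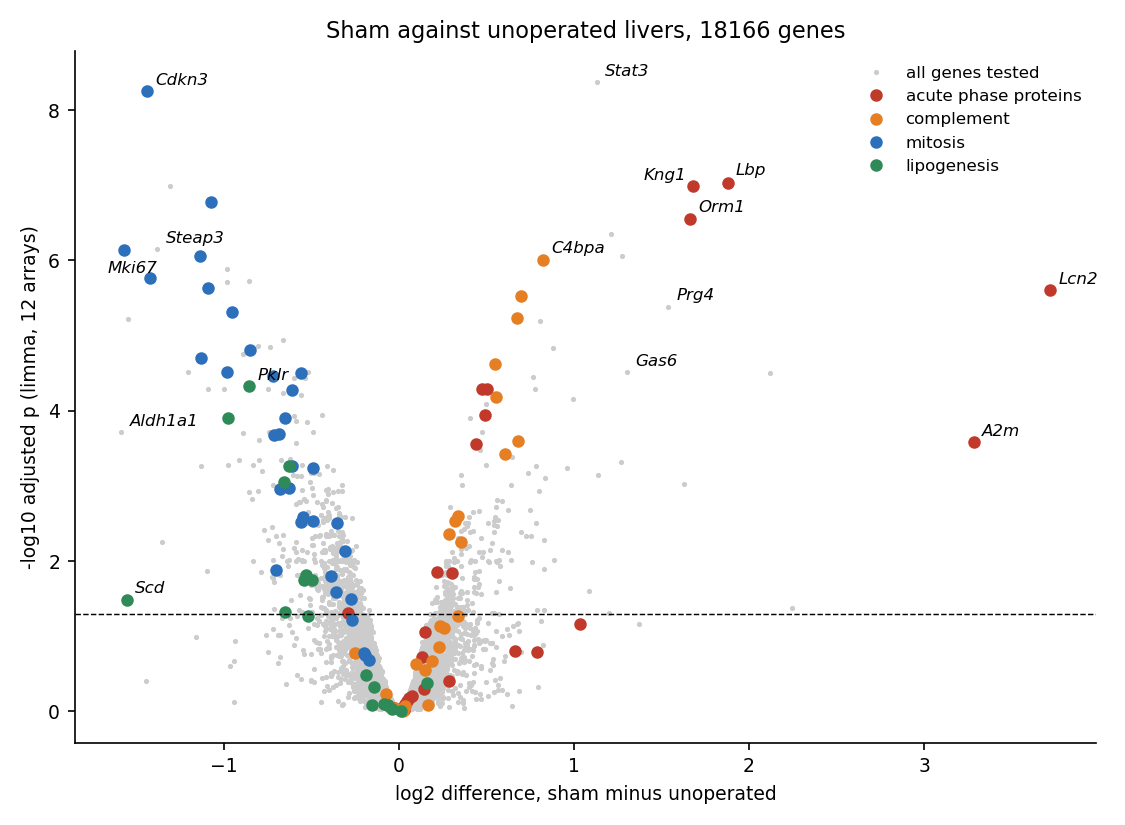
Log2 difference of sham minus unoperated livers (horizontal axis) against the -log10 adjusted p of limma on 12 arrays (vertical axis) for 18166 genes, with 4 gene lists coloured and the threshold of 0.05 dashed. Acute phase (red) and complement genes (orange) lie mostly to the right, mitosis (blue) and lipogenesis genes (green) to the left, and Lcn2 and A2m stand farthest right.

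Plasma proteins of the acute phase held the largest rises. Of 26 measured members 11 were higher in sham livers and 1, Serpina3c, was lower, with a list median of 0.29 against 0.0037 over all genes. The same 11 were higher in the fit of 30 arrays, where Serpina3c was not called (adjusted p = 0.38); its call on 12 arrays (adjusted p = 0.049) was lost in 9 of the 12 fits that left out 1 rat. Serpina3c is named because it was the exception, after its value was seen. In 12 of the 26 every sham rat was above every unoperated rat, against 0.936% of all genes. The list mean on each array lay between -0.22 and -0.07 in the 6 sham rats and between -0.85 and -0.77 in the 6 unoperated rats.

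Lcn2, a secreted protein that withholds iron from bacteria, had the largest rise of all genes. Its log2 values were -2.32, -1.70 and -0.24 (lowest, median, highest) in sham and -5.70, -5.09 and -4.83 in unoperated rats. Every sham rat was above every unoperated rat, and sham rat 141 was the highest. The difference was 3.72 (13.2-fold, SE 0.30, limma adjusted p = 2.5e-06), or 3.98 with sham rats 141 and 143 alone. A2m, a broad protease inhibitor that is a main acute phase protein of the rat, had values of -2.50, -0.43 and 0.73 in sham and -4.68, -3.89 and -3.10 in unoperated rats. The groups did not overlap, and sham rat 112, the lowest of its group, lay nearest to the unoperated rats. Its difference was 3.28 (9.75-fold, SE 0.42, adjusted p = 0.00026), or 3.71 with sham rats 141 and 143 alone.

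Lbp, Kng1 and Orm1 rose about equally and with little spread between rats. Lbp, which carries bacterial lipopolysaccharide to its receptor, had values of -0.19, 0.22 and 0.34 in sham and -1.94, -1.78 and -1.35 in unoperated rats, a difference of 1.88 (3.67-fold, SE 0.11, adjusted p = 9.4e-08). Kng1, a kininogen from which kinins are cut, had values of -0.53, -0.03 and 0.12 in sham and -1.95, -1.81 and -1.64 in unoperated rats, a difference of 1.68 (3.21-fold, SE 0.10, adjusted p = 1.0e-07). The rat has several closely similar kininogen genes, so this probe set may also read its relatives. Orm1, the orosomucoid that binds drugs in plasma, had values of -0.40, -0.09 and 0.12 in sham and -1.99, -1.81 and -1.53 in unoperated rats, a difference of 1.66 (3.17-fold, SE 0.11, adjusted p = 2.8e-07). In these genes too the groups did not overlap. The other 6 members that rose did so by 0.22 to 0.50, among them Hp, the haemoglobin scavenger haptoglobin (0.50, 1.41-fold, adjusted p = 5.1e-05), and Fga, a chain of fibrinogen (0.22, 1.16-fold, adjusted p = 0.014). Rises within the list thus ran from 1.16-fold to 13.2-fold.

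To show the upstream sequence of genes with these rises, the 250 bases before the RefSeq transcript start are given for Lcn2 (chr3:36081781-36082030, minus strand), Kng1 (chr11:91340149-91340398, minus strand) and Orm1 (chr5:81788259-81788508, plus strand), assembly GRCr8, read 5′ to 3′ along the gene. Capitals mark a match to TTGCNNAA or its reverse complement, the core of a C/EBP site.
Lcn2: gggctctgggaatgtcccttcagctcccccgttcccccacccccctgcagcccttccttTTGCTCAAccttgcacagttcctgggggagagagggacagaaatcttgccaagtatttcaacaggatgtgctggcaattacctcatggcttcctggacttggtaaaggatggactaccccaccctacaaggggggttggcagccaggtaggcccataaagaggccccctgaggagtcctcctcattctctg
Kng1: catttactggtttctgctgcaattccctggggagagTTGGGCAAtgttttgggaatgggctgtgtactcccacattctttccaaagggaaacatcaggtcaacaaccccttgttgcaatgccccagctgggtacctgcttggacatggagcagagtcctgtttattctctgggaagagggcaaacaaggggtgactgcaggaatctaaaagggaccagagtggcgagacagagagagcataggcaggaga
Orm1: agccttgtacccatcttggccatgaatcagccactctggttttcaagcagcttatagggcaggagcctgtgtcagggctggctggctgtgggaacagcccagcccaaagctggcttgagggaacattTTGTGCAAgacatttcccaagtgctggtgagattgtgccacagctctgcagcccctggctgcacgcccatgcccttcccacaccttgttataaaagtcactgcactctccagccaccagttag
The matches lie at positions -191 to -184, -214 to -207 and -123 to -116 from the transcript start, and none of the 3 windows holds TTCNNNGAA, the core of a STAT site. Windows were available for 14502 of the genes tested, but not for A2m and Lbp. Both strands were searched, with matches of the 2 motifs overlapping in 0 windows. TTGCNNAA was found in 8.85% of all windows, in 8 of 22 acute phase windows, in 13% of the 177 windows of genes higher in sham and in 7.47% of the 415 of genes lower in sham. TTCNNNGAA was found in 6.83% of all windows, in 6 of 22 acute phase windows and in 13% and 7.23% of those of genes higher and lower in sham. A match describes the letters of a window and is not evidence of binding.

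**Figure D2:**
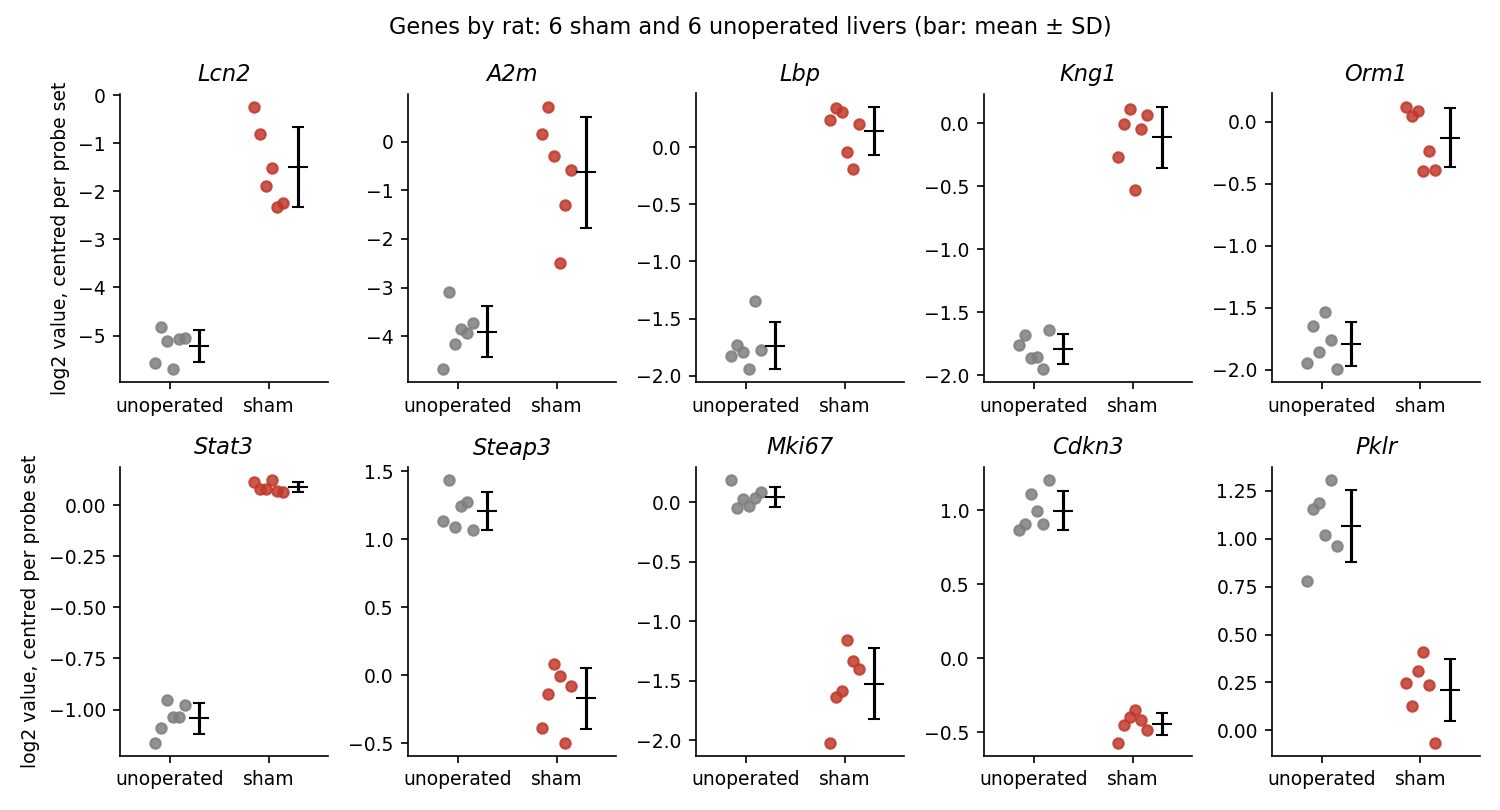
Centred log2 values of 10 genes in each of the 6 unoperated (grey) and 6 sham (red) livers, with the mean ± SD (n = 6) as bars; the vertical axes differ between panels. In all 10 genes the groups do not overlap; 6 genes are higher in sham (Lcn2, A2m, Lbp, Kng1, Orm1, Stat3) and 4 lower (Steap3, Mki67, Cdkn3, Pklr).

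The signalling genes upstream of these proteins changed less. Of 30 measured members of IL-6 and IL-1 signalling 6 were higher in sham and 0 lower, with a median of 0.06; 2 of the 6, Stat3 and Tnfrsf1a, were also called in the fit of 30 arrays. Stat3, the transcription factor downstream of the IL-6 receptor, had values of 0.06, 0.08 and 0.12 in sham and -1.16, -1.04 and -0.95 in unoperated rats. The sham rats lay within a range far narrower than the gap between the groups, and the difference of 1.13 (2.19-fold, SE 0.05) had an adjusted p of 4.3e-09, or 2.7e-05 on 30 arrays. It was also 1.13 with sham rats 141 and 143 alone. Il6r, the receptor subunit that binds IL-6, was higher by 0.72 (1.65-fold, SE 0.13, adjusted p = 0.0047; 0.081 on 30 arrays), with overlap between the groups. Il1rn, the secreted antagonist of the IL-1 receptor, was higher by 0.79 (1.72-fold, adjusted p = 0.00054), and Tnfrsf1a, a receptor of tumour necrosis factor, by 0.59 (adjusted p = 0.0071). Socs3, the feedback inhibitor of STAT3 signalling, was higher by 0.42 (adjusted p = 0.036), a call lost in 7 of the 12 fits without 1 rat, with adjusted p up to 0.083.

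Complement genes, whose products are made largely by hepatocytes, rose as well. Of 24 measured 11 were higher and 0 lower, with a median of 0.27, and 5 of the 24 were called higher on 30 arrays. The called members run from the starter proteases to the lytic pore and its inhibitors. C4bpa, an inhibitor of the classical pathway, had values of 0.15, 0.29 and 0.39 in sham and -0.67, -0.53 and -0.35 in unoperated rats, a difference of 0.82 (1.77-fold, SE 0.06, adjusted p = 9.8e-07). C9, which forms the pore, was higher by 0.69 (1.62-fold, adjusted p = 3.0e-06), C5 by 0.68 (adjusted p = 5.9e-06) and Serping1, the C1 inhibitor, by 0.68 (adjusted p = 0.00025). In these 4 genes every sham rat was above every unoperated rat. The coagulation, fibrinolysis and kinin genes outside the acute phase list changed less: of 28 measured 3 were higher and 0 lower. Their median was 0.07, with 0 calls on 30 arrays. Kng1 (1.68) and Fga (0.22), counted above as acute phase genes, are not among the 28, so the smaller change depends on that split. F9, the clotting factor IX, was higher by 0.29 (1.22-fold, SE 0.05, adjusted p = 0.0019). The other calls were Proz (0.25, adjusted p = 0.035) and F7 (0.35, adjusted p = 0.049), and without sham rat 41 or 45 or unoperated rat 145, 151 or 152 only 1 of the 3 was called.

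Of 20 measured Kupffer cell and macrophage markers 3 were called higher and 17 were not called, with 0 called on 30 arrays. All 20 had differences above 0, as had 9392 of all 18166 genes, and the list median was 0.20. At an unadjusted p below 0.05, 11 of the 20 were higher. Vsig4, the complement receptor of Kupffer cells, was higher by 0.55 (1.47-fold, SE 0.11, adjusted p = 0.010), while the calls of Marco (0.54, adjusted p = 0.049) and Laptm5 (0.31, adjusted p = 0.047) were lost in 11 and 10 of the 12 fits without 1 rat. The mean of the list lay between -0.02 and 0.22 in sham and between -0.25 and 0.09 in unoperated rats, so the groups overlapped. Of 17 neutrophil markers 0 were called by limma and 2 were higher at an unadjusted p below 0.05. In this list 16 had differences above 0, with a median of 0.07. S100a8, abundant in neutrophils, differed by 0.21 (adjusted p = 0.098), and its 6 sham values lay above the 6 unoperated values, by a narrow margin (-0.230 against -0.231), while S100a9, its partner, by 0.02 (adjusted p = 0.95). The part of macrophages in the rise of complement and signalling genes was not tested.

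Genes of iron handling changed in both directions. Of 24 measured 7 were higher and 2 lower, with a median of 0.04. Hp and Lcn2, counted above, are among the 7, as is Tfr2, the hepatocyte sensor of iron-loaded transferrin (0.50, 1.41-fold, SE 0.06, adjusted p = 8.0e-05). Steap3, a reductase that turns ferric into ferrous iron in endosomes, went the other way, with values of -0.49, -0.11 and 0.09 in sham and 1.07, 1.19 and 1.44 in unoperated rats. The gap between the groups was wider than the range within either, and the gene fell by 1.38 (2.60-fold, SE 0.10, adjusted p = 7.1e-07, and 9.3e-08 on 30 arrays), and differed by -1.44 with sham rats 141 and 143 alone. Hamp, the iron hormone hepcidin, is named for its role and after its value was seen; it differed by 0.03 (adjusted p = 0.97).

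Other secreted proteins and ligands were among the 15 largest rises. Wfdc21, a small secreted protein with a whey acidic protein domain, was higher by 2.12 (4.35-fold, SE 0.22, adjusted p = 3.1e-05). Spink1, a trypsin inhibitor, was higher by 1.63 (3.09-fold, adjusted p = 0.00094; 0.075 on 30 arrays), with sham values from -0.35 to 1.37 and unoperated values from -1.28 to -0.67. Prg4, lubricin, had values of -0.34, -0.03 and 0.10 in sham and -2.01, -1.62 and -1.23 in unoperated rats, a difference of 1.54 (2.90-fold, SE 0.13, adjusted p = 4.1e-06). Prg4 is also listed among mesothelial markers, and it was the only 1 of 12 called there, with a list median of 0.03. Fgl1, a fibrinogen-like protein secreted by hepatocytes, was higher by 1.27 (2.42-fold, adjusted p = 8.9e-07). Gas6, the ligand of the TAM receptors that damp inflammation, was higher by 1.30 (2.47-fold, SE 0.13, adjusted p = 3.1e-05), with sham values of 0.33, 0.78 and 1.39 and unoperated values of -0.64, -0.55 and -0.18. Of 5 TAM receptor and ligand genes Gas6 was the only call, on 12 and on 30 arrays.

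The remaining large rises were of enzymes, globins and less well known genes. Isyna1, which makes inositol from glucose phosphate, was higher by 1.27 (2.41-fold, adjusted p = 0.00049) and Lipo1, of a lipase family, by 1.21 (2.32-fold, adjusted p = 4.4e-07; 0.066 on 30 arrays). Hbb-b1, a beta globin, was higher by 1.13 (2.20-fold, SE 0.16, adjusted p = 0.00071), with sham values of 0.63, 0.69 and 1.15 and unoperated values of -0.87, -0.32 and 0.23. Hba-a1, an alpha globin, was higher by 0.54 (1.46-fold, adjusted p = 0.0041), while the carbonic anhydrases Car1 and Car2, also of red cells, fell by 0.79 (adjusted p = 0.014) and 0.72 (adjusted p = 0.019). Of 11 red cell markers measured these 4 were the calls, and the list mean ran from 0.02 to 0.24 in sham and from -0.03 to 0.26 in unoperated rats. Red cells of adult rats lack nuclei but keep some globin mRNA, and globin probe sets may also bind the transcripts of other globin copies. Ly6al (2.25, 4.75-fold, adjusted p = 0.042) and Mfsd2a, a lipid transporter (1.20, 2.30-fold, adjusted p = 0.049), overlapped between the groups and lost their calls in 10 and 9 of the 12 fits without 1 rat. For Ly6al sham rat 141 (-0.14) lay inside the unoperated range of -0.34 to 1.77, while the other 5 sham rats lay between 2.38 and 4.07.

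Mitosis genes made up the most uniform fall. Of 33 measured 29 were lower in sham and 0 higher, with a median of -0.63; all 33 had differences below 0, and in 26 the groups did not overlap, against 1.9% of all genes with every sham value below. The list mean lay between -0.65 and -0.45 in the sham rats and between -0.03 and 0.19 in the unoperated rats. On 30 arrays 0 of the 33 were called and 12 were lower at an unadjusted p below 0.05. In that fit the spread includes the resected livers, in which the list mean varied more between rats.

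**Figure D3:**
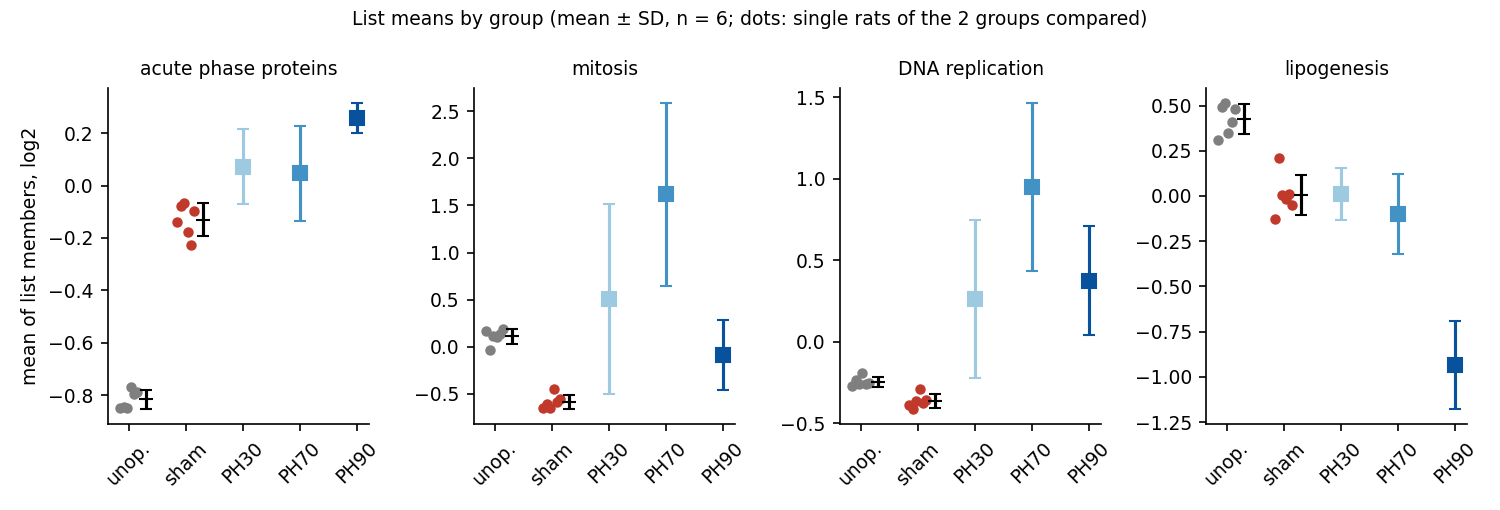
Mean of the measured members of 4 gene lists on each array, on the centred log2 scale, with dots for single rats of the 2 groups compared and mean ± SD (n = 6) for all 5 groups. Sham rats (red) lie above unoperated rats (grey) for acute phase proteins and below them for mitosis, DNA replication and lipogenesis; the SD of mitosis is 0.08 in both groups and 1.01, 0.97 and 0.37 in PH30, PH70 and PH90.

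Mki67, the Ki-67 antigen of cycling cells, had values of -2.02, -1.49 and -1.16 in sham and -0.05, 0.04 and 0.19 in unoperated rats. It fell by 1.57 (2.97-fold, SE 0.11, adjusted p = 7.2e-07; 0.18 on 30 arrays), and differed by -1.76 with sham rats 141 and 143 alone. Cdkn3, a phosphatase acting on cyclin-dependent kinases, had values of -0.57, -0.43 and -0.35 in sham and 0.87, 0.95 and 1.20 in unoperated rats. It had the smallest adjusted p of the list (difference -1.44, 2.72-fold, SE 0.06, adjusted p = 5.5e-09; 0.092 on 30 arrays). Top2a, the topoisomerase that untangles chromosomes, fell by 1.42 (2.68-fold, adjusted p = 1.7e-06), Ccnb1, the cyclin of entry into mitosis, by 1.14 (2.20-fold, adjusted p = 8.9e-07) and Plk1, a kinase of the spindle, by 1.13 (2.19-fold, adjusted p = 2.0e-05). Cdk1, the kinase that cyclin B activates, fell by 0.61 (1.53-fold, adjusted p = 5.2e-05). Every sham rat was below every unoperated rat in each of these genes.

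Genes of other steps of the cell cycle fell in part. Ccna2, the cyclin of S phase and later, fell by 1.31 (2.48-fold, SE 0.08, adjusted p = 1.0e-07) and Stmn1, which frees tubulin and is high in dividing cells, by 1.09 (2.13-fold, adjusted p = 5.1e-05). Of 36 DNA replication genes 3 were lower and 0 higher, with a median of -0.08, and 0 were called on 30 arrays. The 3 were Rrm2, a subunit of the reductase that makes deoxynucleotides (-1.55, 2.92-fold, adjusted p = 6.0e-06), Tyms, thymidylate synthase (-0.47, adjusted p = 0.0016), and Pcna, the clamp of DNA polymerases (-0.31, adjusted p = 0.019). Ccnd1, cyclin D1 of the G1 phase, fell by 0.52 (1.44-fold, adjusted p = 0.0031). Myc differed by -0.35 (adjusted p = 0.30) and Cdkn1a, the inhibitor p21, by -0.13 (adjusted p = 0.83), both with overlap. Of 8 histone genes 0 were called, with 1 higher and 1 lower at an unadjusted p below 0.05, and of 25 ribosome biogenesis genes 0 were called, with 3 lower at that level. Hgf, the hepatocyte growth factor, was higher by 0.26 (adjusted p = 0.040), a call lost in 8 of the 12 fits without 1 rat.

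Lipogenesis genes were the metabolic list with the largest share of calls. Of 19 measured 9 were lower and 0 higher, with a median of -0.50; on 30 arrays 0 were called and 10 were lower at an unadjusted p below 0.05. The list mean lay between -0.13 and 0.21 in sham and between 0.31 and 0.52 in unoperated rats. Pklr, the liver pyruvate kinase that feeds carbon from sugar into fat, had values of -0.06, 0.24 and 0.41 in sham and 0.78, 1.09 and 1.31 in unoperated rats, a difference of -0.86 (1.81-fold, SE 0.09, adjusted p = 4.7e-05; 0.12 on 30 arrays), or -0.98 with sham rats 141 and 143 alone. Tkfc, a kinase of fructose breakdown, fell by 0.98 (1.97-fold, SE 0.12, adjusted p = 0.00013) and Elovl5, an elongase of long unsaturated fatty acids, by 0.65 (1.57-fold, adjusted p = 0.00089). Scd, the desaturase that makes oleate, fell by 1.55 (2.93-fold, SE 0.38, adjusted p = 0.032). Its sham values ran from -2.85 in rat 141 to -0.10, and the call was lost without sham rat 143 or unoperated rat 145, 148, 150 or 152, with differences over all 12 such fits from -1.72 to -1.17. Cholesterol synthesis did not follow: of 19 genes 1, Ebp, a sterol isomerase, was called higher (0.46, adjusted p = 0.020) and 9 were higher at an unadjusted p below 0.05, with a median of 0.27, and the count of calls reached 4 without sham rat 141, 3 without unoperated rat 147 or 151 and 2 without sham rat 112.

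Among genes that burn fat and handle fuel in fasting the calls were all falls. Of 25 genes of fatty acid oxidation and ketogenesis 5 were lower and 0 higher, beside 2.71% and 1.26% of all genes. The list median was -0.08, with 20 of the 25 below 0, and 2 remained called on 30 arrays. These were Acadm, the medium-chain acyl-CoA dehydrogenase (-0.60, 1.52-fold, SE 0.06, adjusted p = 3.7e-05), and Acat1, the mitochondrial thiolase of ketone bodies (-0.55, 1.47-fold, adjusted p = 0.00052). Without unoperated rat 148 or 152 the count was 3. Of 19 fasting and fuel switching genes 3 were lower, Acadm, Pc, pyruvate carboxylase (-0.48, adjusted p = 0.0047), and Plin2, which coats lipid droplets (-0.40, adjusted p = 0.035, lost in 8 of the 12 fits without 1 rat), and 0 higher, with a median of 0.01. On 30 arrays 2 of the 19 were lower, Acadm and a member not called on 12 arrays.

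Among enzymes of detoxification, 26 conjugation enzymes held 5 lower and 1 higher, beside 2.71% and 1.26% of all genes, with a median of -0.15; on 30 arrays 1 was lower and 1 higher. The lowest difference of the list, -1.44, was of a member that was not called. Gsta3, a glutathione transferase, fell by 1.10 (2.14-fold, SE 0.23, adjusted p = 0.014), with overlap through a sham rat at 0.60. Gsta1 fell by 0.70 (1.62-fold, adjusted p = 0.0047; 0.029 on 30 arrays) and Gsta2 by 0.68 (1.61-fold, adjusted p = 0.0057); these near-identical genes can share probes. Nnmt, which methylates nicotinamide, was the rise (0.78, 1.71-fold, SE 0.08, adjusted p = 5.1e-05). Of 34 P450 genes 1, Por, the reductase that gives P450 enzymes their electrons, was higher (0.76, 1.69-fold, adjusted p = 0.0046) and 2 were lower, with a median of -0.02. Cyp2c11, the male-specific P450 of rat liver, differed by -0.31 (adjusted p = 0.057). Of 21 Nrf2 antioxidant genes 4 were lower and 2 higher, with a median of -0.12. Both the P450 and the Nrf2 list held a larger share of calls than the 3.97% over all genes, the Nrf2 list the larger of the 2. The ratio of lower to higher calls in them was about that over all genes, of which 493 were lower and 228 higher. On 30 arrays the P450 list held 1 higher and 0 lower, and the Nrf2 list 0 of either. Akr7a3, an aldehyde reductase, fell by 0.97 (1.96-fold, SE 0.13, adjusted p = 0.00052). Aldh1a1, which oxidises retinal, had the largest fall of all genes, with values of -1.34, -0.77 and 0.03 in sham and 0.32, 0.90 and 1.24 in unoperated rats, a difference of -1.59 (SE 0.20, adjusted p = 0.00019; 0.029 on 30 arrays).

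Among bile acid and amino acid genes most calls were falls. Of 23 genes of bile acid synthesis and transport 3 were lower and 1 higher, beside 2.71% and 1.26% of all genes. The list median was -0.05, and 0 were called on 30 arrays. Slc10a1, the main bile salt importer, fell by 0.24 (1.18-fold, SE 0.05, adjusted p = 0.0064) and Slco1a4, an organic anion importer, by 0.72 (1.64-fold, adjusted p = 0.0096). Slco1b2, of the same family as Slco1a4, fell by 0.47 (1.39-fold, SE 0.08, adjusted p = 0.0028). Of 36 genes of the urea cycle and amino acid breakdown 2 were lower and 0 higher, which is near the share over all genes (2.71% lower), with a median of -0.06. These were Cth, which makes cysteine and fell by 0.86 (1.81-fold, SE 0.07, adjusted p = 1.9e-06; 0.16 on 30 arrays) and Glud1, glutamate dehydrogenase, which fell by 0.35 (adjusted p = 0.0075). Other large falls were of Slc6a6, the taurine transporter (-1.36, 2.56-fold, adjusted p = 0.0056), Tymp, thymidine phosphorylase (-1.20, 2.30-fold, adjusted p = 3.1e-05), and Cxcl13, a chemokine that attracts B cells (-1.13, 2.19-fold, adjusted p = 0.00054), each also called on 30 arrays. Cxcl1, a chemokine for neutrophils, was higher by 0.88 (1.84-fold, SE 0.08, adjusted p = 1.4e-05; 0.21 on 30 arrays), and these 2 were the calls among 25 chemokine and adhesion genes.

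Secretion and stress lists gave a mixed picture. Of 26 genes of the unfolded protein response 8 were higher and 1 lower, with a median of 0.17, and 0 on 30 arrays. Sdf2l1, a chaperone partner of the endoplasmic reticulum, was higher by 0.78 (1.72-fold, SE 0.13, adjusted p = 0.0031), Hyou1, a large chaperone there, by 0.46 (adjusted p = 0.0075) and Dnajb11 by 0.42 (adjusted p = 0.0040). Atf4, a transcription factor of the same response, fell by 0.48 (1.39-fold, adjusted p = 0.015). Only 5 of the 8 were called without sham rat 45 or 112 or unoperated rat 145, 148, 151 or 152. Of 30 genes of the secretory pathway 0 were called by limma and 6 were higher at an unadjusted p below 0.05. Of 16 heat shock genes 1 was higher and 2 lower, and Hspe1, the mitochondrial co-chaperone, fell by 0.47 (adjusted p = 0.024), a call lost without sham rat 45 or unoperated rat 151 or 152, where the difference ran from -0.45 to -0.41.

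Hormone, clock and immediate early genes were called about as often as all genes, of which 3.97% were called. Of 18 glucocorticoid response genes 0 were called by limma, but 17 had differences above 0, with a median of 0.30. At an unadjusted p below 0.05, 7 of the 18 were higher, beside 1229 of all 18166 genes. Differences in this list ran from -0.18 to 1.37, and Fkbp5, a sensitive target of the hormone, differed by 0.08 (adjusted p = 0.77). Of 16 clock genes 1 fell, Npas2, a partner of Bmal1 (-0.83, 1.78-fold, SE 0.11, adjusted p = 0.00052; 0.030 on 30 arrays). Per1 differed by 0.58 (adjusted p = 0.36), Bmal1 by -0.08 (adjusted p = 0.73) and Dbp by 0.17 (adjusted p = 0.29). Of 18 immediate early genes 1 fell, Jun (-0.56, 1.47-fold, adjusted p = 0.0096). Of 21 genes of growth hormone and insulin-like growth factor action 1 fell, Stat5a (-0.38, adjusted p = 0.0062), and Igf1 differed by -0.17 (adjusted p = 0.19). Of 9 negative acute phase proteins 8 had differences below 0 and 2 fell, beside 2.71% of all genes called lower. The 2 were Serpina6, the corticosteroid carrier of plasma (-0.53, 1.44-fold, adjusted p = 0.0076), and Ttr, transthyretin (-0.21, 1.16-fold, adjusted p = 0.023, lost without sham rat 41 or 45 or unoperated rat 151 or 152, where it was -0.20).

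**Figure D4:**
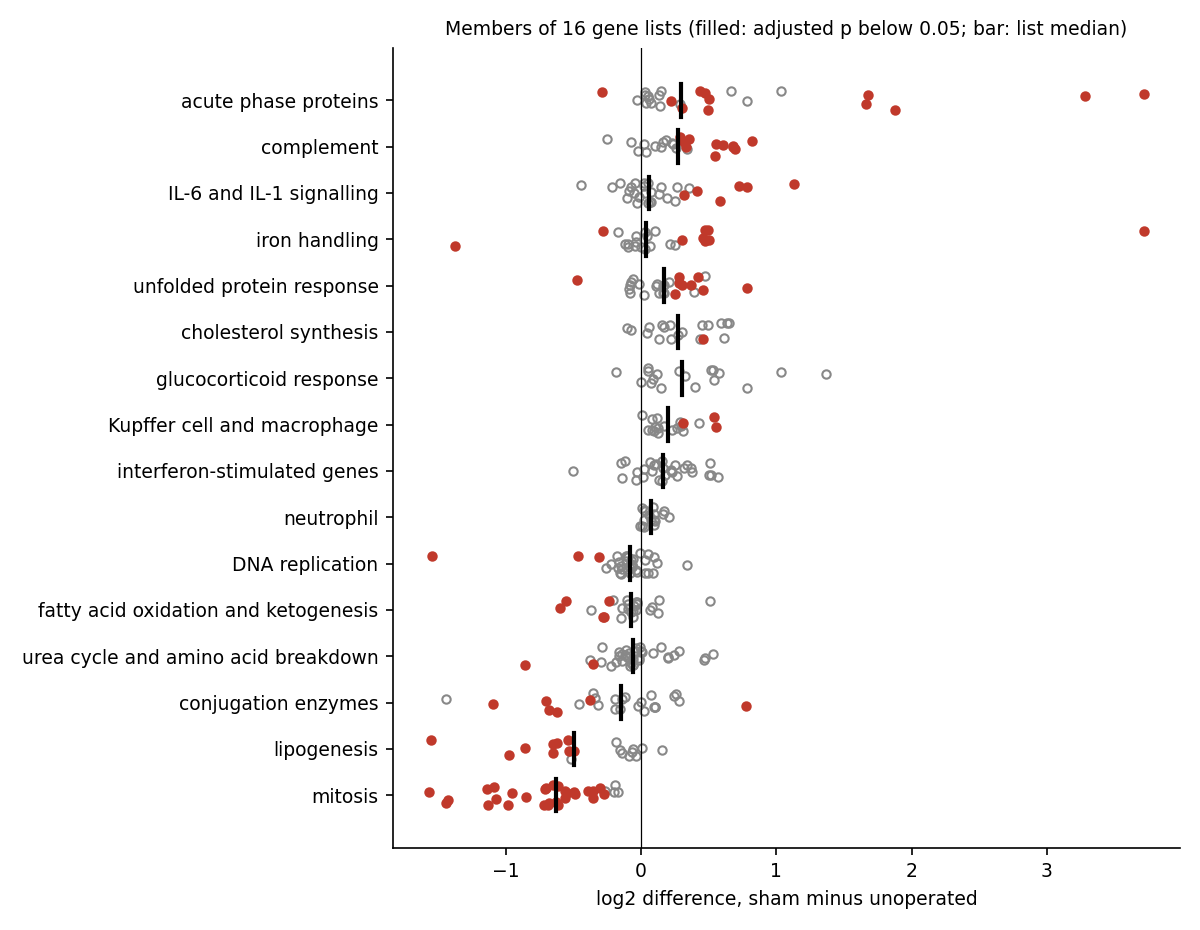
Log2 differences of sham minus unoperated (horizontal axis) for the measured members of 16 gene lists (rows), with filled red points for members at an adjusted p below 0.05, open points for the others and a black bar at the list median. Filled points lie at positive values for complement and at negative values for mitosis and lipogenesis, while the lists of glucocorticoid response, interferon and neutrophil genes hold none.

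Lists of markers of other cells are short, and at the 3.97% called over all genes each would hold fewer than 1 call, so a count of 0 is near the background. Of 12 sinusoidal endothelial markers 2 were higher, Oit3 (0.43, adjusted p = 0.026) and Clec4g (0.31, adjusted p = 0.031), and of 17 stellate cell and fibroblast markers 1 was higher, Dcn, decorin (0.79, adjusted p = 0.044), and 1 lower, Pdgfrb (-0.27, adjusted p = 0.041). These 4 calls were lost in 8 to 10 of the 12 fits without 1 rat. Of 18 T and NK cell markers, 10 B and plasma cell markers, 9 bile duct markers, 8 platelet markers, 12 markers of exocrine pancreas and 10 of fat cells, limma called 0. At an unadjusted p below 0.05 these lists held 3, 3, 2, 1, 1 and 1 genes, all higher in sham, beside 1229 higher of all 18166 genes. Mast cell markers (9) and skeletal muscle markers (8) held 0 at either level.

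The resected groups were set against the same 6 unoperated rats, so the differences that follow share their controls with the comparison above and are given side by side with no test. For Kng1 they were 1.68 in sham and 1.85, 1.84 and 1.89 in PH30, PH70 and PH90, and for Steap3 -1.38 in sham and -1.25, -1.47 and -1.36. Stat3 gave 1.13 in sham and 1.04, 1.03 and 1.50. The difference in sham was thus near that after resection in Kng1 and Steap3, and for Stat3 near that in PH30 and PH70 and below that in PH90. For Lcn2 it was 3.72 in sham and 5.39, 5.99 and 6.45 in the resected groups. For C5 it was 0.68 in sham, 0.60 and 0.48 in PH30 and PH70 and -0.90 in PH90, and for Gas6 1.30, 1.33, 0.75 and -0.07. The mean of Mki67 was lower than in unoperated livers in sham (-1.57) and PH90 (-0.55) and higher in PH30 (0.76) and PH70 (2.10). Its SD was 0.30 in sham but 1.37, 1.24 and 1.06 in PH30, PH70 and PH90, so the resected means do not describe each rat. In PH30 the mean of the mitosis list ran from -0.27 to 2.34 between rats. Pklr was lower in sham (-0.86), PH30 (-1.22), PH70 (-1.23) and PH90 (-2.88). Hbb-b1 gave 1.13 in sham and 0.46, 0.20 and 0.00 in the resected groups.

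**Figure D5:**
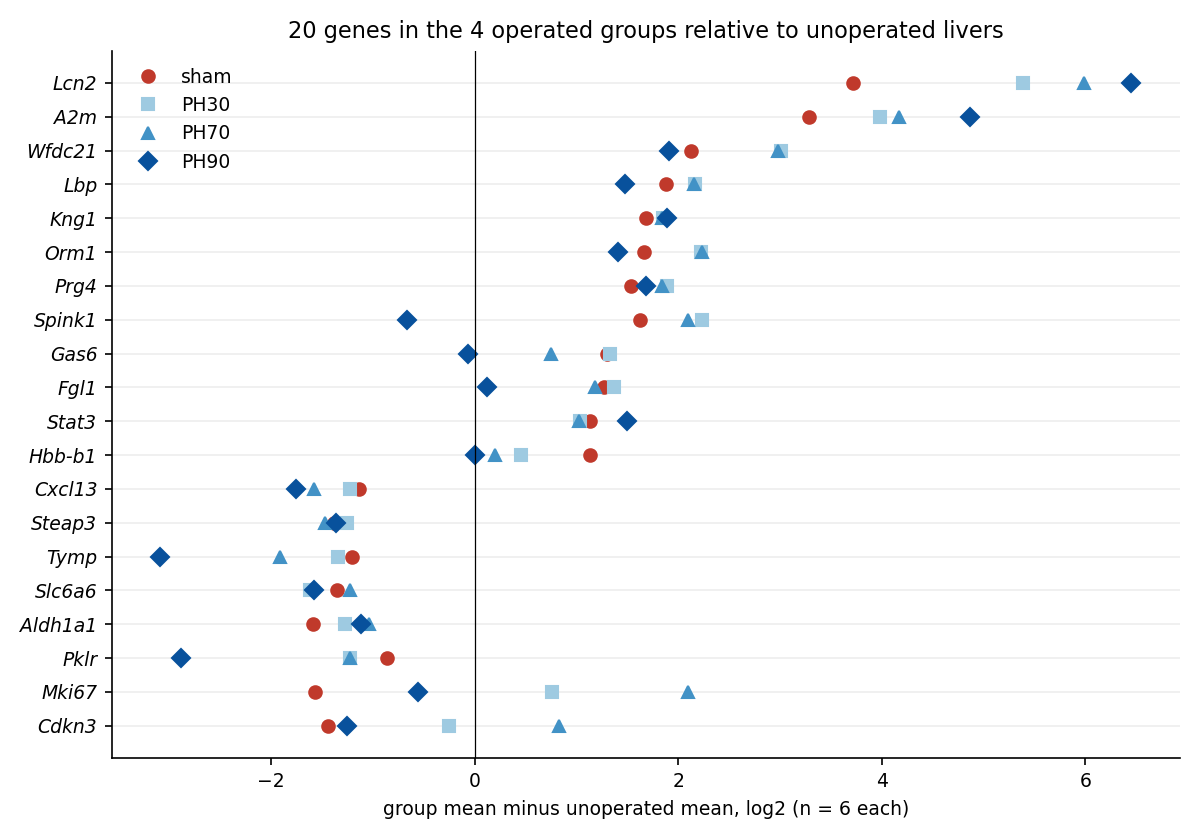
Group mean minus the mean of the unoperated rats, on the log2 scale, for 20 genes in sham (red), PH30, PH70 and PH90 livers (light to dark blue), n = 6 each; all points share the unoperated controls. The 4 groups lie close together for Kng1 and Steap3 and apart for Lcn2, Mki67 and Pklr.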

How the data were processed

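The authors deposited 1 table of log2 values that has a row for each of 29489 probe sets and a column for each of 30 rats. Affymetrix Expression Console and RMA made them, per the submitters' processing notes, with no version named. RMA subtracts background, puts arrays on 1 distribution and gives a log2 value per probe set. Row medians over 30 arrays are 0 within 5e-07, so the table was centred before deposit. Signal over background is not known, no filter on low values could be set, and precision is limited by 6 arrays per group. Column medians of -0.009 to 0.022 show a common scale.

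Probe sets were named from the platform annotation: 18511 had 1 symbol, 575 several and 10403 none. The Entrez IDs of 18394 of the 18511 were in a RefSeq table (GRCr8), which changed 0 symbols. The 291 genes with several probe sets were given their mean. Genes were fitted with limma 3.58.1 in R 4.3.3 (lmFit, eBayes, two-sided) on the 12 arrays. This left 10 residual degrees of freedom, to which the prior added 5.1. The fit of all 30 arrays was the alternative, and the choice was made with both counts known: the median SD over genes was 0.121 in sham and 0.120 in unoperated rats against 0.148, 0.132 and 0.145 in PH30, PH70 and PH90. The script was tested on simulated data. Each array is a separate rat.

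The gene lists and the genes named were chosen with earlier results of these data known. Named genes are the 15 largest rises and 15 largest falls among called genes, up to 4 called members per list (2 if a list had no call) and 20 genes kept in view throughout; the text names part of them. Promoters were read from RefSeq (GRCr8), 250 bases upstream. Over all windows of that source, not only the 14502 used, 57.8% have their start site at the gene's own start in the gene table. What the start sites of the rest belong to was not checked. Alternatives were another set of arrays, array weights, a robust prior, the probe set with the largest variance, other scalings and fits without 1 rat. Probe sets with several or no symbols were not used in the gene comparison.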

Additional observations from a re-analysis of the deposited data

Results flagged for a closer look

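Within a group of 6 rats, a value was singled out when its gap to the nearest of the others exceeded, as a share of the range of the group, Dixon's critical value at 95% for 6 values. Of 224 groups of 6 examined, for genes named in the text and the means of 8 gene lists, 15 held such a value, and about 1 group in 20 does by chance. Among sham rats, rat 141 stood apart for Per1 (1.49, the others up to 0.013), Mfsd2a (1.90, the others up to 0.26) and Oit3 (-0.10, the others from 0.44). Sham rat 41 stood apart for Serpina3c (-0.29) and Tfr2 (0.52), sham rat 112 for Alb (-0.033) and sham rat 143 for Nnmt (0.0053). Among unoperated rats, rat 147 stood apart for Per1 (0.41, the others up to -0.58) and Il6r (0.28, the others up to -0.31), and rat 150 for Lbp (-1.35) and Ebp (-0.48). Single values also stood apart for Gas6 in unoperated rat 151 (-0.18), Clec4g in unoperated rat 145 (0.35), S100a8 in unoperated rat 148 (-0.54) and Perp in unoperated rat 145 (-0.031). For Lbp, Gas6, Tfr2, Nnmt, Serpina3c, Alb and S100a8 the groups still did not overlap; Alb and S100a8 were not called.

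The same fit on all 29489 probe sets called 757, of which 600 had 1 gene symbol. It called 23 probe sets with several symbols (9 higher and 14 lower in sham) and 134 listed with no gene (70 higher and 64 lower), 4% and 1.29% of those kinds, which the gene comparison does not use.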

How the results depend on the processing

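Of the 721 called genes 445 were called in all 12 fits that left out 1 rat, in which the count ran from 542 (without unoperated rat 152) to 782 (without sham rat 141), with 166 to 261 higher and 370 to 536 lower. The fit of all 30 arrays called 134 (56 higher, 78 lower), and 168 probe sets in place of 757. Without PH30 rat 95 and PH70 rat 139, the rats that stood apart in their groups, the fit of the other 28 arrays called 316 (117 higher, 199 lower). With sham rats 141 and 143 as the only sham rats 166 were called (58 higher, 108 lower), from fewer arrays. A minimum size of 0.5 left 204. Array weights (786), a robust prior (738), the probe set with the largest variance (704), arrays shifted to a median of 0 (718) and quantile normalization (679) stayed within 1.5 times of 721. Over 30 arrays, 28 arrays and the 2 nearest sham rats the counts of called list members were 5, 7 and 7 for complement (main 11), 0, 3 and 0 for the unfolded protein response (8), 0, 1 and 4 for lipogenesis (9) and 0, 1 and 1 for DNA replication (3). Mitosis gave 0 on 30 and 12 on 28 arrays in place of 29, IL-6 and IL-1 signalling 2 on 30 arrays and 3 with the 2 nearest sham rats in place of 6, and conjugation enzymes 1 in both in place of 5. The rise of acute phase genes stayed within 1.5 times of 11 in all these fits. Without 1 rat, counts ran from 11 to 13 for acute phase, 5 to 7 for IL-6 and IL-1 signalling, 11 to 12 for complement, 27 to 30 for mitosis, 3 to 3 for DNA replication, 5 to 9 for the unfolded protein response, 7 to 10 for lipogenesis and 5 to 6 for conjugation enzymes. Of the 100 called genes open to naming, 34 were called on 30 arrays, 59 on 28, 44 with the 2 nearest sham rats, 96 to 100 in the other 5 fits of the 12 arrays and 80 to 95 without 1 rat, and 0 changed sign. No paired analysis was possible because the groups share no replicate number.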

Other observations

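Interferon-stimulated genes differed between sham rats more than between the groups. Of 30 measured 0 were called by limma, with 6 higher and 1 lower at an unadjusted p below 0.05 and a median of 0.16. The list mean was 0.75 in sham rat 112 and between -0.19 and 0.33 in the other 5 sham rats, against -0.20 to 0.17 in the unoperated rats. The mean of the glucocorticoid response genes was highest in sham rat 141 (0.57) and lowest in sham rat 143 (0.02), against -0.29 to 0.11 in the unoperated rats.

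Of 18 hypoxia genes 0 were called by limma, with 4 higher and 1 lower at an unadjusted p below 0.05 and a median of 0.06. Of 14 p53 targets 1 fell, Perp (-0.34, adjusted p = 0.035), a call lost in 9 of the 12 fits without 1 rat. The cold-inducible genes Rbm3 and Cirbp, which rise when body temperature falls, differed by 0.06 (adjusted p = 0.84) and -0.22 (adjusted p = 0.17). These lists, like the others, were chosen with earlier results of these data known.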
